A study of Saccharomyces cerevisiae with 100 samples.

Results

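Mediator is the large coactivator complex that carries signals from gene-specific transcription factors to RNA polymerase II. Its tail contacts activators, its head and middle contact the polymerase, a scaffold subunit joins these parts, and a dissociable kinase module regulates the association with the polymerase. The genes described here are the kinase module genes SRB8, SSN2, SSN3 and SSN8, the scaffold gene RGR1, and the tail genes GAL11, SIN4, NUT1, MED2 and PGD1. They were chosen by their systematic names, starting from 2 single-nucleotide variants (SNVs) in 1 suppressor strain, so their choice was not independent of the measured values. SNVs overlapping these 10 genes made up 11 of the 3092 SNVs deposited for the whole study, and 5 of the 10 genes carried them. In the whole study 1660 genes had an SNV listed, and 1533 of these are in the gene reference used here. That reference holds 6021 protein-coding genes, and the 1660 are not all among them. The 10 genes make up 26.5 kb of the 8930 kb of coding length of those 6021 genes.

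The study searched for mutations that relieve the sensitivity of budding yeast lacking the Rad53 checkpoint kinase to methyl methanesulfonate (MMS), a DNA-alkylating agent. Genomic DNA of 100 W303-derived strains was sequenced, with 1 library per strain. S64Bα, a MATα suppressor with sml1Δ::URA3, rad53Δ::HIS3, chk1Δ::LEU2 and exo1Δ::TRP1, was compared with W64Aα, which has the same deletions and mating type. A batch of 95 MATa suppressors with sml1Δ::URA3 and rad53Δ::LEU2 was compared with YJT75, a MATa strain with the same deletions. YMS6 was compared with YGDP939 (sml1Δ::URA3 rad53Δ::LEU2 exo1Δ::HIS3). The label of YMS6 gives MATa and the W303 markers but no deletion, and the paper describes YMS6 as a rad53Δ exo1Δ strain. The label of YGDP939 does not say which mating type it has. Each suppressor is 1 isolate and some share SNVs, and S64Bα had been backcrossed repeatedly to its parent before sequencing. Names such as SUP4 are the labels of single suppressors.

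The measured value is the allele frequency, which tells how much of a library's reads at one site show the alternative base in place of the reference base. The depth at single positions is unknown. With a single library on each side, no difference from a control has a replicate check. SNVs were counted from an allele frequency of 0.7, the minimum used by the study, and nonsilent SNVs were those that changed an amino acid, created or removed a stop codon, or removed a start codon. Each SNV is written as the base of the sacCer2 reference strand, its position from the start of the chromosome, and the alternative base.

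Of the 11 SNVs in the 10 Mediator genes, 9 were missense, 2 were synonymous and 0 were nonsense. Each was found in 1 strain, so the 11 SNVs were 11 separate base changes, and each was listed at 0 in the control strain of its experiment. S64Bα carried 2 of them and the 95 suppressors carried 9, in 8 strains. The YMS6 table listed 163 SNVs, of which 0 lay in these genes. SSN3, SSN8, SIN4, MED2 and PGD1 had no SNV listed in any strain.

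**Figure D1:**
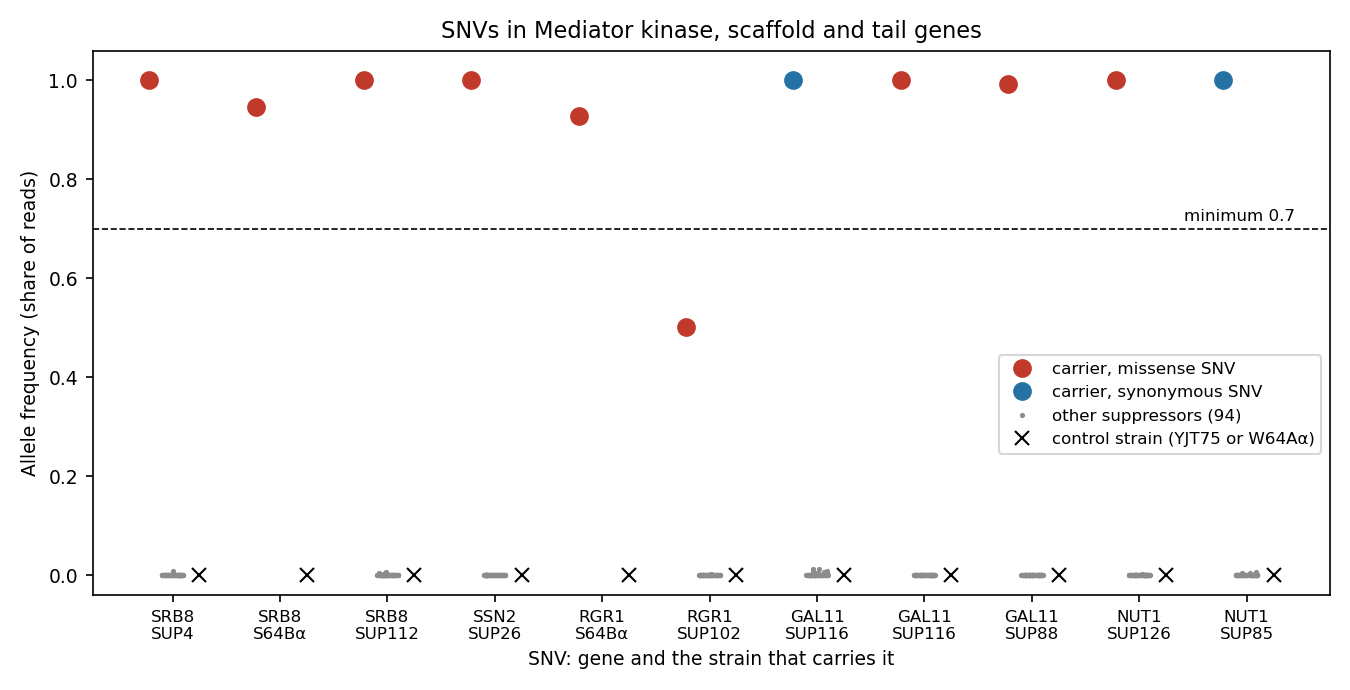
Allele frequency (share of reads) of the 11 SNVs in Mediator kinase, scaffold and tail genes, by gene and carrier strain. Large circles are carriers (red, missense; blue, synonymous), small grey points the 94 other suppressors, crosses the control strain, and the dashed line the minimum of 0.7; 10 carriers lie above 0.9, the RGR1 SNV of SUP102 lies at 0.501, and no other library exceeds 0.0132.

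SRB8 (YCR081W, chromosome III) encodes the Med12 subunit, a large protein of the kinase module. It carried 3 missense SNVs, each in a different strain. S64Bα had A257858T at an allele frequency of 0.947, against 0 in W64Aα. SUP4 had G257403T at an allele frequency of 1.0, and SUP112 had C258290A at 1.0, against 0 for both in YJT75. Among the 94 other suppressors, the highest allele frequency was 0.0074 for the SNV of SUP4 and 0.0067 for that of SUP112. A strain counts as a carrier by this same value. The 3 SNVs lay within 887 bases, a distance that is 20.7% of the 4284-base coding length of SRB8. The SNVs of S64Bα and SUP112 were 432 bases apart, which is 144 whole codons, and so fell at the same position of a codon in the uninterrupted reading frame. The SNV of SUP4 lay 455 bases from that of S64Bα and 887 bases from that of SUP112, neither of which is a whole number of codons. Whether whole-codon distances were more frequent in these genes than by chance was not tested.

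SSN2 (YDR443C, chromosome IV) encodes Med13, the subunit that links the kinase module to the rest of Mediator. Its only SNV was the missense SNV T1348161A in SUP26, at an allele frequency of 1.0, against 0 in YJT75 and 0 in each of the 94 other suppressors. SSN3, the Cdk8 kinase itself, and SSN8, its cyclin C partner, had no SNV. The SNVs of the kinase module were therefore in its 2 longest genes, SRB8 and SSN2 (4284 and 4263 bases), while SSN3 and SSN8 are 1668 and 972 bases long.

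RGR1 (YLR071C, chromosome XII) encodes Med14, the essential scaffold subunit of Mediator. It carried 2 missense SNVs, T276146C in S64Bα and T277502C in SUP102. The allele frequency was 0.929 in S64Bα, against 0 in W64Aα. In SUP102 it was 0.501, against 0 in YJT75, and the highest value among the 94 other suppressors was 0.0031. The SNV of SUP102 was thus carried by about as many reads as the reference base, and at the minimum of 0.7 it is not counted. The 2 SNVs are 1356 bases apart, which is 452 whole codons and 41.7% of the coding length. Both change T to C on the reference strand, and A to G on the coding strand.

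The allele frequency of the RGR1 SNV in SUP102 was set beside those of the strain's other SNVs. Of 5 SNVs on chromosome XII in SUP102, 3 had intermediate values, namely A127534G in SOF1 at 0.501, the RGR1 SNV at 0.501 and G369018T in AHP1 at 0.484. The remaining SNVs, A733544T in MET17 and A865312T in ROM2, were both above 0.9. The intermediate values thus belonged to the 3 SNVs with the lowest positions. On the other chromosomes of SUP102, 2 of 15 SNVs were under 0.7. Over all suppressors, 365 of 409 SNVs on chromosome XII were under 0.7, with a median of 0.491. On the other chromosomes 130 of 2714 were, with a median of 1.0. Of the genes on chromosome XII, 4.23% carried a nonsilent SNV in a suppressor at 0.7 and 31.0% at 0.40. In S64Bα none of the 6 SNVs on chromosome XII was under 0.7, and the RGR1 SNV had the lowest value of the 6. The cause of the intermediate values was not tested.

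**Figure D2:**
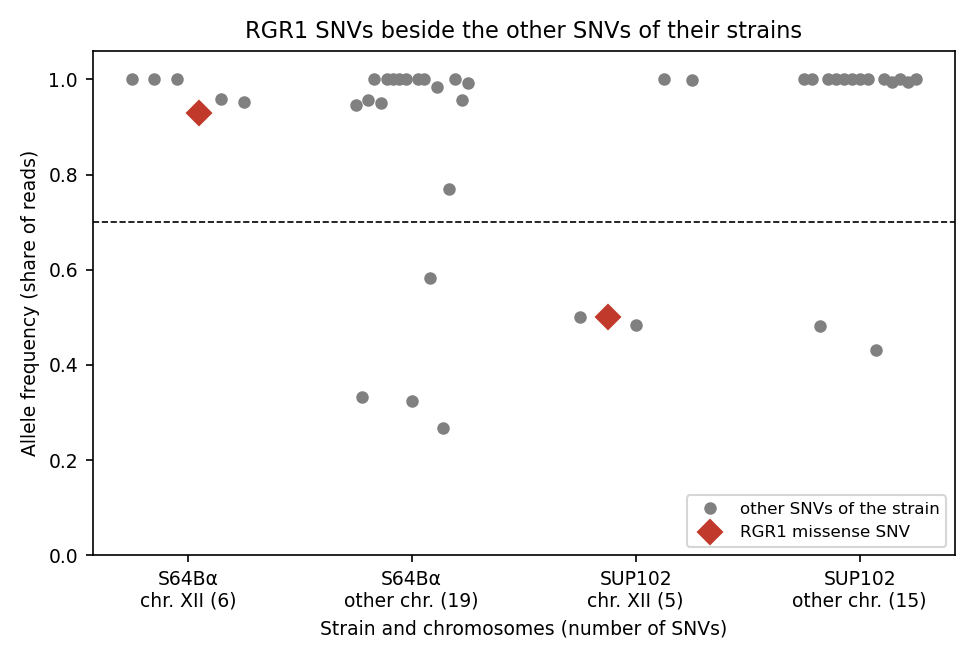
Allele frequency (share of reads) of every deposited SNV of S64Bα and SUP102, split into chromosome XII and the other chromosomes, with the number of SNVs in parentheses. Red diamonds are the RGR1 SNVs, at 0.929 in S64Bα and 0.501 in SUP102, grey points are the other SNVs, and the dashed line is the minimum of 0.7.

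GAL11 (YOL051W, chromosome XV) encodes Med15, the tail subunit that is contacted by many activators, among them Gal4, Gcn4 and Pdr1. It carried 3 SNVs in 2 suppressors. SUP116 had the synonymous SNV C236864A and the missense SNV A237727G, both at an allele frequency of 1.0, against 0 in YJT75. The synonymous SNV was above 0 in 10 of the 94 other suppressors, at up to 0.0132. These 2 SNVs lie 863 bases apart, which is not a whole number of codons. No other of the 9 SNVs had a second SNV of the same strain within 50 kb. Over all suppressors, 4.34% of the 2628 SNVs counted at 0.7 had another SNV of the same strain within 1000 bases. SUP88 had the missense SNV G238132C at an allele frequency of 0.992, against 0 in YJT75. Both missense SNVs were at 0 in each of the other suppressors, and they lie 405 bases apart, which is 135 whole codons. The synonymous SNV lies 1268 bases from that of SUP88, which is not a whole number of codons.

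NUT1 (YGL151W, chromosome VII) encodes Med5, another tail subunit. It carried the missense SNV A218102G in SUP126 and the synonymous SNV A220597G in SUP85, both at an allele frequency of 1.0, against 0 in YJT75. The highest value in the 94 other suppressors was 0.002 and 0.0065, for the SNV of SUP126 and of SUP85. The 2 positions are 2495 bases apart, or 73.4% of the coding length, and this is not a whole number of codons. The other tail genes were without an SNV. These are SIN4 (Med16), of 2925 bases, and MED2 (Med2) and PGD1 (Med3), of 1296 and 1194 bases, which form a small subassembly with Gal11.

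Positions between genes were also searched, since a change in a promoter would not be listed under the gene itself. Of 765 SNVs outside annotated genes in the suppressors, 0 had one of the 10 genes as its nearest listed neighbour on either side, and the same held for the 8 such SNVs in S64Bα and the 94 in YMS6. In the suppressors, 5 SNVs inside other genes had one of the 10 as a listed neighbour.

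Together, the 10 genes carried 6 nonsilent SNVs in the 95 suppressors when counted from 0.7, all missense, in 6 strains. These 6 SNVs were in 4 of the 10 genes. Of 6021 protein-coding genes, 16.5% carried at least 1 distinct nonsilent SNV at this minimum. With at least 2 distinct nonsilent SNVs, there were 2 of the 10 genes, SRB8 and GAL11, and 2.86% of all genes. At the deposited minimum of 0.40, RGR1 was added, which gave 7 nonsilent SNVs in 5 of the 10 genes, beside 19.4% of all genes. At that minimum, 2 of the 10 genes and 3.84% of all genes carried at least 2 distinct nonsilent SNVs. SRB8 and GAL11 are 4284 and 3246 bases long, and the shares with at least 2 were not computed for genes of like length. In S64Bα, 2 of the 10 genes carried a nonsilent SNV, beside 0.199% of all genes (12 genes), and these 2 SNVs are the ones from which the genes were chosen.

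Gene length was set beside these counts, because a long gene offers more bases to mutate. The median coding length was 3086 bases over the 10 genes and 1203 bases over all protein-coding genes. All 5 of the genes with an SNV were longer than the 5 without, with medians of 3399 and 1296 bases. Of the genes of at least 3000 bases, a limit chosen after seeing the values, 34.2% of 535 carried a nonsilent SNV at 0.7. Among the 10 Mediator genes, 5 reach this length, and 4 of these were mutated. The exception was RGR1, which is mutated at 0.40, where the share of long genes was 39.3%. The limit lies between SIN4 (2925 bases, without an SNV) and GAL11 (3246 bases). It therefore took in exactly the 5 genes with an SNV, so their share cannot be compared with that of all long genes.

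Per kilobase of coding length, the 10 genes carried 0.226 nonsilent SNVs summed over the suppressors (exact Poisson 95% interval 0.0831 to 0.493), against 0.145 (0.137 to 0.153) for all protein-coding genes. Without RGR1, which is on chromosome XII, the value was 0.258 (0.0947 to 0.562) for the other 9 genes, against 0.156 (0.147 to 0.165) for all genes outside chromosome XII. The interval of the Mediator genes included the value of all genes in both cases, so a difference was not detectable with 6 SNVs. The kinase module genes had 0.268 SNVs per kilobase (3 SNVs) and the tail genes 0.249 (3 SNVs). The intervals cover counting error only, and treat an SNV shared by several suppressors as separate events. Over all genes, 1196 of the 1291 nonsilent SNVs counted were distinct, while the 6 of the Mediator genes were all distinct. Of the coding SNVs at 0.7, 6 of 8 were nonsilent in the Mediator genes (75%, exact Clopper-Pearson 95% interval 34.9% to 96.8%), against 72.8% (70.6% to 74.8%) over all genes.

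**Figure D3:**
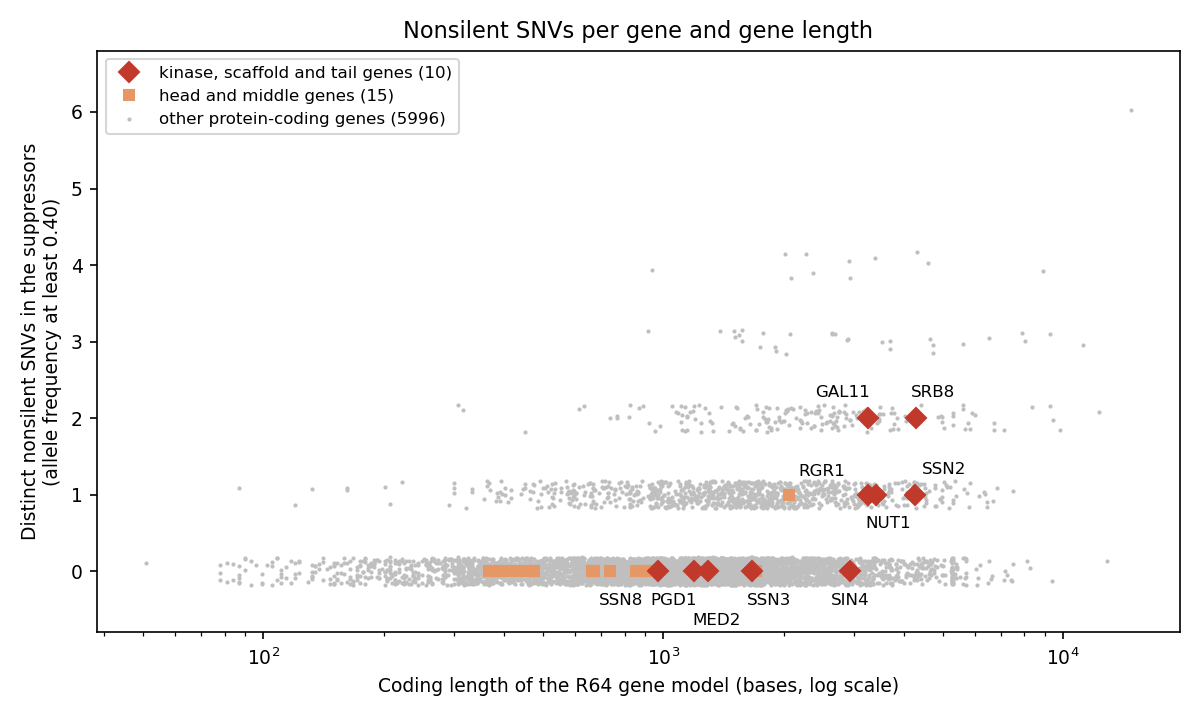
Distinct nonsilent SNVs per gene in the suppressors (allele frequency of at least 0.40) against the coding length of the gene in bases (log scale). Red diamonds are the 10 kinase, scaffold and tail genes, orange squares the 15 head and middle genes, and grey points the 5996 other protein-coding genes, spread vertically for display; the 5 diamonds with 1 or 2 SNVs lie to the right of the 5 diamonds at 0.

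The other 15 Mediator genes, which encode the head and the middle, carried 2 SNVs. SRB4 (YER022W, chromosome V) encodes Med17, an essential head subunit, and had the missense SNV C200778A in SUP85 at an allele frequency of 0.993, against 0 in YJT75. SUP85 is also the strain with the synonymous SNV in NUT1. MED6 (YHR058C, chromosome VIII), another head gene, had the synonymous SNV G219179T in SUP82 at 1.0, against 0 in YJT75. Among the 7 middle genes none carried an SNV, and 1 SNV outside genes had the middle gene MED4 as a neighbour. The 10 kinase, scaffold and tail genes add up to 26.5 kb, against 11.7 kb for the 15 head and middle genes. The rate of nonsilent SNVs per kilobase was 0.226 in the 10 genes, against 0.0857 (0.00217 to 0.478) in the 15, with overlapping intervals.

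Genes whose products work beside Mediator were counted in the same way. Of the 12 RNA polymerase II subunit genes, 4 carried a nonsilent SNV at 0.7, at 0.290 SNVs per kilobase (0.0789 to 0.742). Of the 17 general transcription factor genes 3 did, at 0.133 (0.0274 to 0.389), and at 0.40 their rate was 0.222. Over all protein-coding genes 16.5% did, at 0.145 SNVs per kilobase, and at 0.40 the rate was 0.174. Both intervals of these lists at 0.7 included 0.145. The 14 genes that the study places in its suppressor pathways carried 21 nonsilent SNVs, or 0.613 per kilobase (0.379 to 0.937). The study named at least part of these genes from its own sequenced strains, so their rate is not independent evidence.

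Of the 11 SNVs, 5 were A-to-G changes on the coding strand, 2 were A-to-T, 2 were C-to-A, 1 was G-to-T and 1 was G-to-C. With both strands joined, T-to-C changes made up 4 of the 9 in the suppressors (44.4%) and 29.6% of all 2006 distinct coding SNVs there. C-to-T changes made up 0 of 9 and 16.8%. With 9 SNVs, these shares were too coarse to be compared.

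The strains that carried the missense SNVs differed widely in their number of mutations. At 0.7, the 6 carriers had between 4 and 20 nonsilent SNVs, the Mediator SNV included (median 17.5), and the 89 other suppressors had between 1 and 27 (median 14), so the groups overlapped. SUP4 had 20, SUP112 had 19, SUP116 had 18, and SUP26 and SUP126 had 17 each. In these 5 strains the Mediator SNV was 1 among many. SUP88 stood apart with 4 nonsilent SNVs, and only 5 suppressors had fewer.

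**Figure D4:**
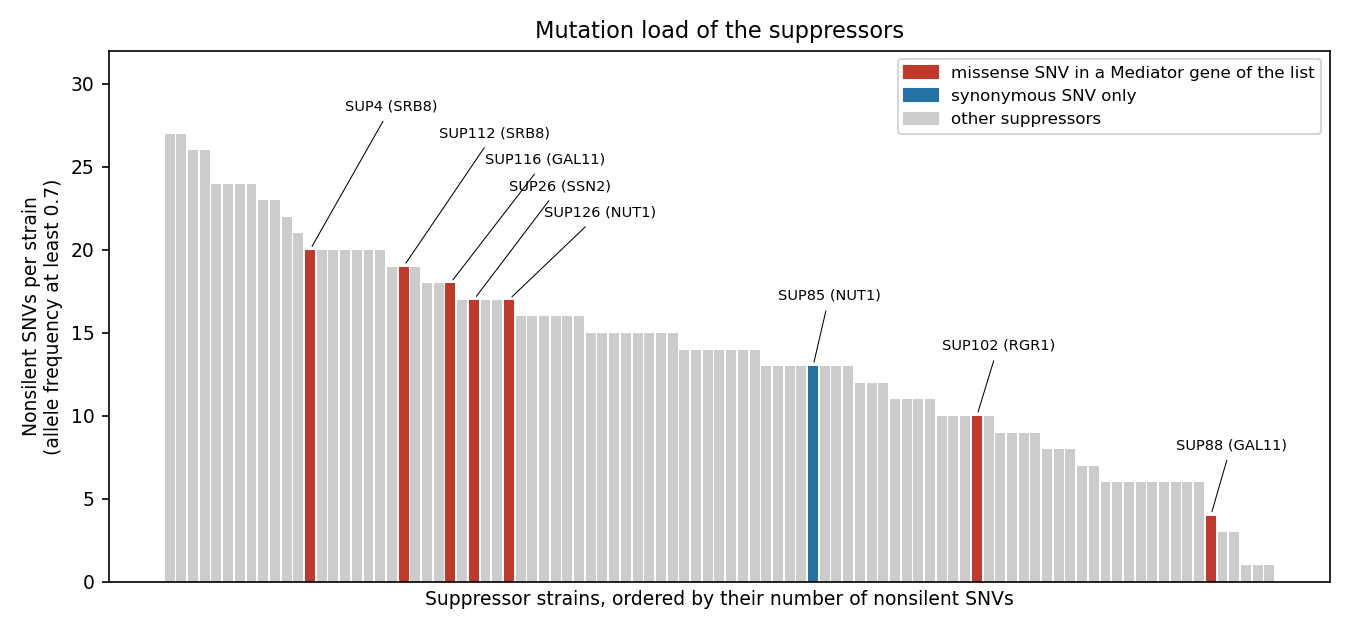
Nonsilent SNVs per suppressor (allele frequency of at least 0.7), 1 bar for each of the 95 strains, ordered from high to low. Red bars are strains with a missense SNV in 1 of the 10 genes, the blue bar is SUP85, with a synonymous SNV in NUT1, and grey bars are the other strains; SUP88 has 4 nonsilent SNVs and SUP4 has 20, and the RGR1 SNV of SUP102 (10 nonsilent SNVs) is itself under the minimum.

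In SUP88, the GAL11 SNV was accompanied by missense SNVs in PDR3 (YBL005W, A217873G, allele frequency 1.0), GPI17 (YDR434W, A1331545G, 1.0) and GUD1 (YDL238C, C29373A, 1.0). PDR3 encodes a transcription factor of the pleiotropic drug resistance genes, GPI17 a subunit of the GPI transamidase, and GUD1 guanine deaminase. The GUD1 SNV is carried by 49 of the 95 suppressors. The SNVs in GAL11, PDR3 and GPI17 were each listed at 0 in YJT75, and GUD1 at 0.0046. Gal11 is known to be contacted by Pdr3 and by its paralog Pdr1. These genes were looked at after the values of SUP88 had been seen.

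Of the 7 suppressors with a missense SNV in the 10 genes at 0.40, 5 carried the GUD1 SNV (SUP88, SUP102, SUP112, SUP116 and SUP126), and SUP4 and SUP26 did not. Strains that share this SNV may not be independent isolates, but each Mediator SNV was found in only 1 of them.

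The carriers were also searched for nonsilent SNVs in the genes of the study's suppressor pathways. At 0.7, 0 of the 8 suppressors with an SNV in the 10 genes had one in the 14 pathway genes, beside 19 of all 95 suppressors, and the difference between these shares was not tested. Likewise 0 of the 8 had one in the RNA polymerase II or general transcription factor genes, beside 4 and 3 of all 95. The paper's own assignment of suppressors to pathways used wider gene groups and a minimum of 0.40. It covered more suppressors than these 14 genes did. At 0.40, 1 of the 8 had a nonsilent SNV in the 14 pathway genes, beside 22 of all 95 suppressors. The strain was SUP112, with the missense SNV G1020756T in SIR3 (YLR442C, chromosome XII), a silencing gene, at an allele frequency of 0.606. The only nonsense SNV listed in these 8 strains was C579909A in YKR075C (chromosome XI) in SUP26, at 1.0. S64Bα, beside its SNVs in SRB8 and RGR1, carried a nonsense SNV in 1 of the 14 pathway genes. This was A524729T in RPH1 (YER169W, chromosome V), the gene of a histone demethylase, at 0.951. The paper remade the RPH1 truncation in an unmutagenised strain with the same deletions. It reported survival in MMS much like that of the original suppressor strain. It describes no such experiment for SRB8 or RGR1.

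S64Bα was the only sequenced strain with nonsilent SNVs in more than 1 of the 10 genes. Its 12 nonsilent SNVs had allele frequencies of 0.929 to 1.0, and RGR1 and SRB8 had the lowest values, followed by RPH1 at 0.951. Of the 12 genes mutated in S64Bα, 2 also carried a nonsilent SNV in a suppressor at 0.7, SRB8 in 2 strains and RPH1 in 1, beside 16.5% of all genes. At 0.40, RGR1, YEF3 and RIC1, all on chromosome XII, were added, with 1 suppressor each, which gave 5 of the 12 genes, beside 19.4% of all genes. No test of this overlap was run.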

How the data were processed

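Novoalign 2.07.14 was used by the authors to place the paired-end reads on sacCer2, and Picard 1.81 to discard PCR duplicates among the longer reads. Bases were counted with deepSNV, SNVs were called jointly in each experiment, those at 0.1 or more in the control were dropped, and snpEff gave the annotation. The deposited values are allele frequencies, with a minimum of 0.25 (S64Bα, YMS6) or 0.40 (suppressors). The deposited tables write 10 where the allele frequency is 1.0, and 1836 such cells were read as 1. They give 1 gene and 1 effect per SNV, no depth and no amino acid.

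The 10 genes and all gene lists were chosen with earlier results of these data known. No test between conditions was run, since each strain has 1 library. Genes were matched by systematic name to the R64 RefSeq table (1533 of 1660 identifiers, and all 68 listed genes). Its gene lengths were taken as coding length, as 96.3% are multiples of 3, and none of its positions were used. Named genes are the 10, the other Mediator genes with an SNV, listed pathway genes mutated in a carrier, and genes with a nonsense SNV in a carrier. Others were chosen after their values were seen, namely PDR3, GPI17 and GUD1 (SUP88), SOF1, AHP1, MET17 and ROM2 (SUP102), YEF3 and RIC1 (S64Bα), PDR1 and MED4. The counting was tested on simulated data. The software was Python 3.11.15 with pandas 2.3.3, scipy 1.17.1 and, for plots, matplotlib 3.10.9.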

Additional observations from a re-analysis of the deposited data

How the results depend on the processing

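The 2 nonsilent SNVs of S64Bα and the counts, the rate and the nonsilent share of the 10 genes in the suppressors were recomputed with a minimum allele frequency of 0.9 or of the deposited 0.25 (S64Bα) or 0.40 (suppressors). For the suppressors they were also recomputed with distinct SNVs, with SNVs listed at 0 in the control, with all 25 Mediator genes and, chosen after seeing the data, without RGR1. Counting splice-site SNVs as nonsilent was tried for the number of SNVs. In these 33 recomputed values every count stayed within 1.5 times its main value, and every rate and share within its 95% interval. Several settings could not change the suppressor counts. Each SNV counted there was at 0.992 or more, in 1 strain and at 0 in the control, and RGR1 had none at 0.7. With all 25 genes, 5 of 25 (20%) carried a nonsilent SNV, in place of 4 of 10 (40%), beside 16.5% of all genes. The number of nonsilent SNVs ranged from 6 to 7, and the rate from 0.183 per kilobase with all 25 genes to 0.264 at a minimum of 0.40. Counting nonsense SNVs only gave 0 SNVs, and counting synonymous SNVs gave 2, in place of 6. No paired analysis was possible because each strain has 1 library and the suppressors share no replicate numbers with a control. With 6 to 9 SNVs in the 10 genes, only large differences from other genes could be detected.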

Other observations

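PDR3, mutated together with GAL11 in SUP88, was looked up in the other suppressors after that pair had been seen. It carried a missense SNV in 3 suppressors at an allele frequency of at least 0.7, A217834G in SUP63 (0.991), A217873G in SUP88 (1.0) and A220050C in SUP105 (0.995). A further one, A219886G, was at 0.623 in SUP115. Each was listed at 0 in YJT75, and PDR3 is 2931 bases long. At 0.7, 2.86% of all genes carried at least 2 distinct nonsilent SNVs, and some other genes carried as many as PDR3 or more. The share of genes with at least 3, the number in PDR3, was not computed. PDR1, its paralog of 3207 bases, had only the synonymous SNV A472294G, in SUP35 (0.993). Apart from SUP88, no strain with an SNV in PDR3 or PDR1 had one in the 10 Mediator genes, beside 8 of all 95 suppressors. These few strains do not allow the shares to be compared.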
